A study of Mus musculus with 6 samples.

Results

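The genes of MHC class II antigen presentation were followed through sorted mouse bone marrow B cells with and without TAK1. The 10 genes are Ciita, Rfx5, H2-Aa, H2-Ab1, H2-Eb1, H2-DMa, H2-Oa, H2-Ob, Cd74 and Ctss. Every probe set that the array annotation assigns to exactly 1 of these genes was taken, which gave 18 of 34945 probe sets with a single gene symbol, or 10 of 18193 genes. They were taken by gene name, though with earlier results of these data known. Total RNA was measured on 6 Affymetrix arrays in 3 groups of 2. The TAK1-deficient group held Igκ+ B cells of mice labelled mb-1/TAK1f/f, and the other groups held Igκ+ and Igλ+ B cells of mice labelled mb-1/TAK1+/+. All mice were C57BL/6, of both sexes and 8 to 12 weeks old, and none was treated. Before the sort by light chain, cells positive for CD3, Ter119, CD11b, DX5 or Gr1 were depleted. The label mb-1, an older name of Cd79a, is shared by all groups. The labels do not state which construct it stands for or in what share of cells TAK1 was lost. Nor do they say if replicates are different mice, so p-values rest on a spread between samples that may be technical.

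MHC class II molecules display peptides from internalised proteins to CD4+ T cells. An α and a β chain pair in the endoplasmic reticulum with the invariant chain Cd74, which is then degraded in endosomes by proteases such as Ctss. The remaining fragment is exchanged for a peptide by H2-DM, which H2-O restrains in B cells. Transcription needs the factor complex on the X and Y boxes of the promoters, of which Rfx5 is a subunit, and the coactivator Ciita. B cells express class II constitutively.

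The TAK1-deficient arrays stood apart from the other 4 in ways that bear on every value below. The deposited intensities are MAS5 signals scaled per array. The median signal of all probe sets was 323 and 324 without TAK1, and between 44.9 and 59.1 for wild-type cells. The spiked control transcripts had a geometric mean of 41197 and 47043 against 3985 to 4608, and the 95th percentile of the unspiked controls was 75.7 and 77.7 against 10.3 to 17.4. The ratio of the 3′ to the 5′ probe set of Actb was 4.18 and 6.28 against 1.25 to 1.58. Map3k7, which encodes TAK1, read 346 and 599 without TAK1 and 1805 to 2196 in wild-type cells. It fell by 2.09 on the log2 scale (SE 0.29, adjusted p = 0.000369), but after adjustment for level its value of -0.62 was not called. The location of its probes relative to the floxed part was not given, so this value does not check the deletion itself.

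Differences below are on the scale of log2(signal + 16), which understates changes of dim probe sets, and were tested with limma across all single-gene probe sets. A difference was called at an adjusted p under 0.05. By this measure the typical probe set was brighter without TAK1. The median log2 difference of all single-gene probe sets was 1.06, 50.8% were higher and 26.1% were lower. The pattern depended on the level. In the brightest 10% by wild-type level, the median difference was -1.48 and 88.1% were lower. The part that array scaling has in these shifts was not tested.

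Promoter sequences are shown for the genes in which the class II boxes, the elements that Ciita and Rfx5 act through, can be compared by eye. RefSeq promoter windows (GRCm38.p6, 300 bases, of which 250 lie before the start) were matched for 7 of the 10 genes, in 8 windows. H2-Ab1, Ciita and Cd74 had no window. The searched motifs were AGNNACNGA, a core of the X box, CTGATTGG, a Y box, and its inner GATTGG, which every CTGATTGG also holds. Both strands were searched. The last 150 bases before the start are printed 5′ to 3′ on the strand of the gene. Matches that lie wholly before the start are in capitals. They cover chr17:34287824-34287973 (minus strand) for H2-Aa, chr17:34305717-34305866 (plus strand) for H2-Eb1, chr17:34092229-34092378 (plus strand) for H2-Oa, chr17:34238755-34238904 (plus strand) for H2-Ob and chr17:34122682-34122831 (plus strand) for H2-DMa.
H2-Aa: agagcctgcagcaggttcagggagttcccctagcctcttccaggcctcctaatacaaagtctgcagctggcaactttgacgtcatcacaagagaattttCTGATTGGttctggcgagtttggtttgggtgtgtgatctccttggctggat
H2-Eb1: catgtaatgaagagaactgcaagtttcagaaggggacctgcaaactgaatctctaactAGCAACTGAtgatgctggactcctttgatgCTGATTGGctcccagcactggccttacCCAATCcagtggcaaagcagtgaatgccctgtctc
H2-Oa: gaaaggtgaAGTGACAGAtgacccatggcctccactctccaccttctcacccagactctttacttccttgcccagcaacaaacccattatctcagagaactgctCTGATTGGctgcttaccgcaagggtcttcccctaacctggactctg
H2-Ob: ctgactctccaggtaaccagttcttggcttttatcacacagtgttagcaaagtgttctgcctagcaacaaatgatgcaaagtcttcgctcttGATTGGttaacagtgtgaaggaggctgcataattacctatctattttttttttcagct
H2-DMa: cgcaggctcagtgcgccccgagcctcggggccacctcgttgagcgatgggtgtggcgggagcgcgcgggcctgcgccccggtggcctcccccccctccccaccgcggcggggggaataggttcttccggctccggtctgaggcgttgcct

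The full Y box motif begins 51 bases before the start in H2-Aa, 62 in H2-Eb1 and 46 in H2-Oa. A match to the X box core begins 92 bases before the start in H2-Eb1, with 21 bases between it and the Y box. In H2-Oa a match on the strand of the gene begins 141 bases before the start, with 86 bases between. H2-Oa also has matches on the opposite strand, beginning 187 and 4 bases before the start, the latter running past it. Which of these, if any, is the X box in use was not tested, and boxes with other letters are missed. H2-Ob holds GATTGG 58 bases before the start without the preceding CT. The printed H2-DMa window holds none of the 3 motifs. Over the 8 full windows, the X box core was found in 3, the full Y box in 3 and GATTGG in 6. The X box core match of H2-Ob lies after the start, at base 34 on the opposite strand. The GATTGG of H2-DMa lies in a second window that is not printed, 199 bases before its start. Among all 32851 promoter windows of this length the shares were 17.7%, 4.10% and 16.1%. The windows of Rfx5 and Ctss, which lie outside the H2 region, held GATTGG on the opposite strand and no match, respectively. A match describes letters only.

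**Figure D1:**
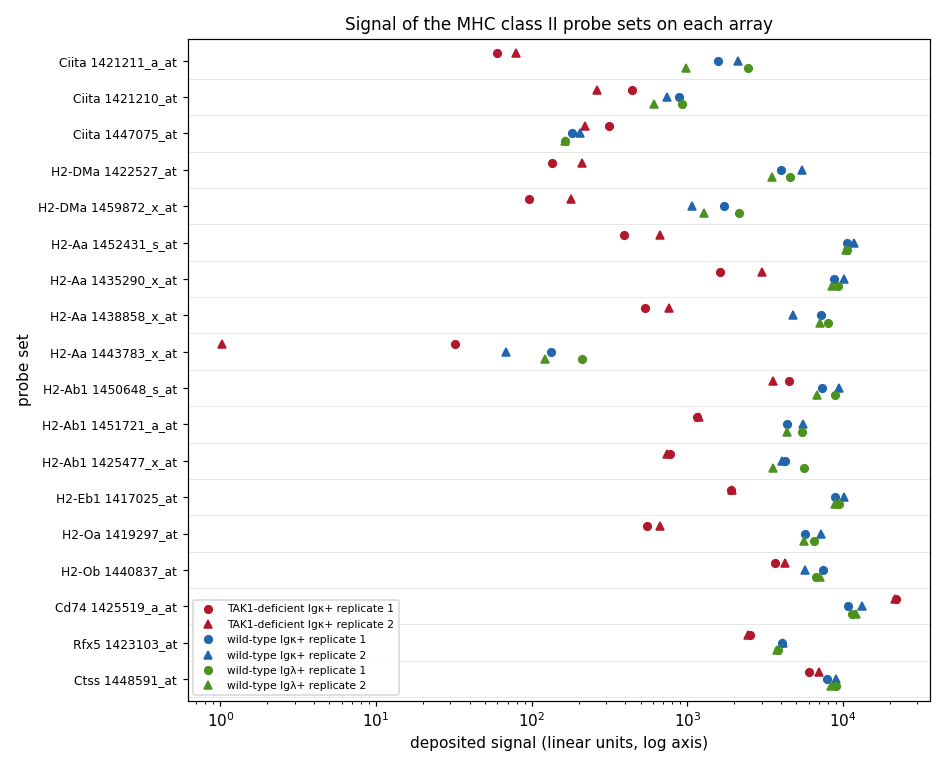
MAS5 signals of the 18 probe sets of the 10 genes on each of the 6 arrays, on a log axis, by group. Each point is 1 array. For 16 probe sets both TAK1-deficient arrays lie below both wild-type Igκ+ arrays, and for Cd74 and Ciita 1447075_at both lie above.

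Loss of TAK1 was compared at the same light chain, as TAK1-deficient Igκ+ against wild-type Igκ+ cells. Of the 18 probe sets, 16 were lower, 1 (Cd74) was higher and 1 (Ciita 1447075_at) was not called. The median difference was -2.08. The same 16 had both TAK1-deficient signals below both wild-type Igκ+ signals, which 31.5% of all single-gene probe sets did. Against the 26.1% of all probe sets called lower this count is high, but against bright probe sets it is not: 13 of the 18 are in the brightest 10%, and 12 of these 13 were lower, near the 88.1% of that set. In bulk RNA, fewer cells of a type and less RNA per cell cannot be told apart.

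**Figure D2:**
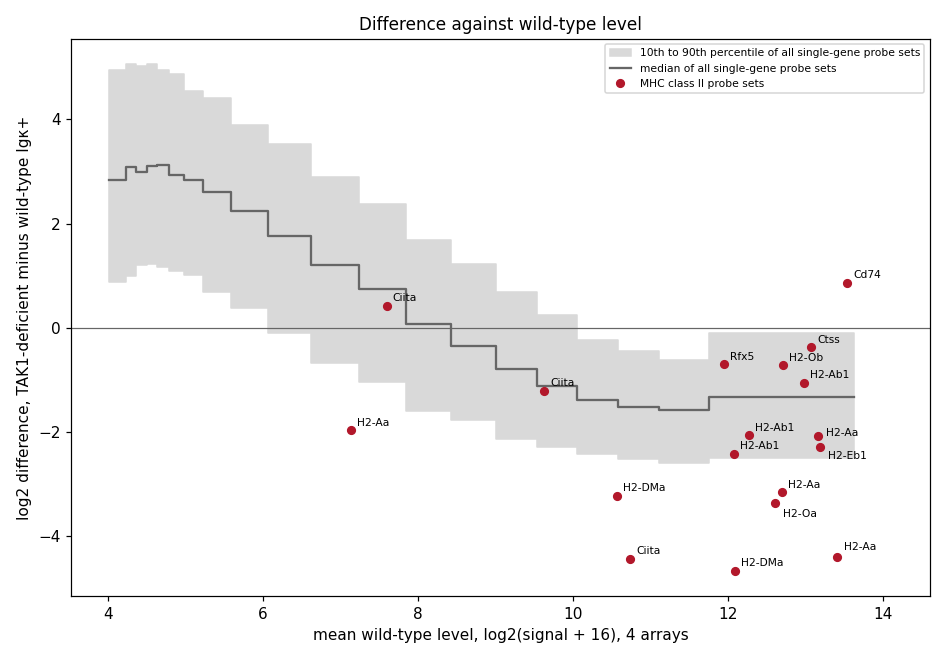
Difference between TAK1-deficient and wild-type Igκ+ cells, in log2(signal + 16), against the mean wild-type level over 4 arrays. The line and band give the median and the 10th to 90th percentile of all single-gene probe sets in 20 bins of equal number, and the points are the 18 probe sets of the class II genes. Of these, 7 lie below the band, 10 inside it and 1, Cd74, above it.

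To set each probe set beside others of its own brightness, all single-gene probe sets were divided by wild-type level into 20 bins. The level includes the wild-type Igκ+ arrays that also enter the difference. Both probe sets of H2-DMa, 3 of the 4 of H2-Aa, that of H2-Oa and 1 of the 3 of Ciita lay below the 10th percentile of their bin. Cd74 lay above the 90th percentile, and the other 10 lay between. In the brightest bin, which holds 13 of the class II probe sets, the median difference was -1.34, with a 10th percentile of -2.49 and a 90th percentile of -0.096.

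Among the regulators, Ciita, the coactivator that sets class II transcription, gave 3 different readings. Probe set 1421211_a_at had signals of 60.1 and 79.3 on the TAK1-deficient arrays, 1579 and 2129 in wild-type Igκ+ cells, and 2466 and 986 in Igλ+ cells. The TAK1-deficient signals were far below all 4 others, and 1 of them was within the range of the unspiked controls. The difference was -4.44 (SE 0.44, adjusted p = 7.3e-05), and the mean percentile of the probe set among all probe sets of an array went from 89.0 to 12.1. Probe set 1421210_at read 439 and 261 in TAK1-deficient cells against 881 and 738 in wild-type Igκ+ cells, and 919 and 606 in Igλ+ cells. It fell by 1.21 (SE 0.34, adjusted p = 0.0134), close to the median of its brightness bin, -1.11. Leaving out TAK1-deficient replicate 2 (-0.85, adjusted p = 0.0722) or replicate 1 of wild-type Igκ+ (-1.09, adjusted p = 0.0796) ended the call, as did adjustment for level (-0.32, adjusted p = 0.495). Over all alternatives its adjusted p ran from 5.94e-07 to 0.495. Probe set 1447075_at read 316 and 220 against 181 and 204, with 163 and 164 in Igλ+ cells. Its difference of 0.42 (SE 0.31, adjusted p = 0.236) was not called, and it was called lower after quantile normalization, median centring and spike-in scaling. The 3 probe sets thus disagree in size and direction. Which transcripts each detects was not given in the sources used here.

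Rfx5, the DNA-binding subunit of the RFX complex on the X box, changed little on the deposited signals. Its signals were 2542 and 2451 in TAK1-deficient cells, 4030 and 4110 in wild-type Igκ+ cells, and 3801 and 3756 in Igλ+ cells. It fell by 0.70 (SE 0.13, adjusted p = 0.00169), while its percentile was 96.9 without TAK1 and 96.5 with it. The fall was smaller than the median of its brightness bin. After quantile normalization the value was 0.085, and after adjustment for level it was 0.65. After median centring and spike-in scaling Rfx5 was called lower, as were all 18 probe sets. Over all alternatives its value ran from -4.13 to 0.65, so its size and direction depend on the scaling.

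The peptide-binding chains were lower on all of their probe sets. H2-Aa encodes the α chain of I-A. Probe set 1452431_s_at read 394 and 670 without TAK1 against 10630 and 11682 in wild-type Igκ+ cells, and 10667 and 10382 in Igλ+ cells. The TAK1-deficient mean was 4.77% of the wild-type Igκ+ mean, and the difference was -4.39 (SE 0.23, adjusted p = 1.47e-05). Its percentile went from 99.9 to 66.1. Probe set 1438858_x_at read 534 and 767 against 7166 and 4780, with 7994 and 7079 in Igλ+ cells, a difference of -3.16 (SE 0.25, adjusted p = 2.93e-05). Probe set 1435290_x_at read 1612 and 3017 against 8778 and 10128, with 9328 and 8498 in Igλ+ cells, and fell by 2.09 (SE 0.26, adjusted p = 0.000239). All 3 bright probe sets agree in direction, but the remaining share of the wild-type Igκ+ signal ranged from 4.77% to 24.5%. The suffixes _s_at and _x_at mark probe sets that may also bind related sequences. The dim probe set 1443783_x_at read 32.0 and 1.02 against 132 and 68.7, with 210 and 121 in Igλ+ cells. Both TAK1-deficient values were within the range of the unspiked controls, so only a bound exists there and no fold is given. The difference was -1.97 (SE 0.56, adjusted p = 0.0131). Without TAK1-deficient replicate 2 it was -1.22 (adjusted p = 0.0939) and, leaving out replicate 1 of wild-type Igκ+, -1.57 (adjusted p = 0.0922), both not called. Its adjusted p ran from 5.98e-05 to 0.0939 over the alternatives.

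H2-Ab1, the β chain that pairs with H2-Aa, fell on all 3 of its probe sets. Probe set 1450648_s_at read 4477 and 3573 without TAK1 against 7375 and 9367 in wild-type Igκ+ cells, and 8866 and 6808 in Igλ+ cells. It fell by 1.05 (SE 0.19, adjusted p = 0.00134). Probe set 1451721_a_at read 1154 and 1183 against 4394 and 5552, with 5488 and 4381 in Igλ+ cells, and fell by 2.06 (SE 0.18, adjusted p = 4.57e-05). The third, 1425477_x_at, read 778 and 738 against 4225 and 4063, with 5640 and 3529 in Igλ+ cells, and fell by 2.43 (SE 0.23, adjusted p = 6.37e-05). None of the 3 lay outside the 10th to 90th percentile of its brightness bin. With adjustment for level, 1450648_s_at was no longer called (-0.078, adjusted p = 0.787, over all alternatives 6.13e-08 to 0.787). H2-Eb1, the β chain of I-E, read 1896 and 1946 against 8939 and 10068, with 9352 and 8932 in Igλ+ cells. Its replicates lay close together, and it fell by 2.29 (SE 0.11, adjusted p = 1.47e-05), to 20.2% of the wild-type Igκ+ mean.

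**Figure D3:**
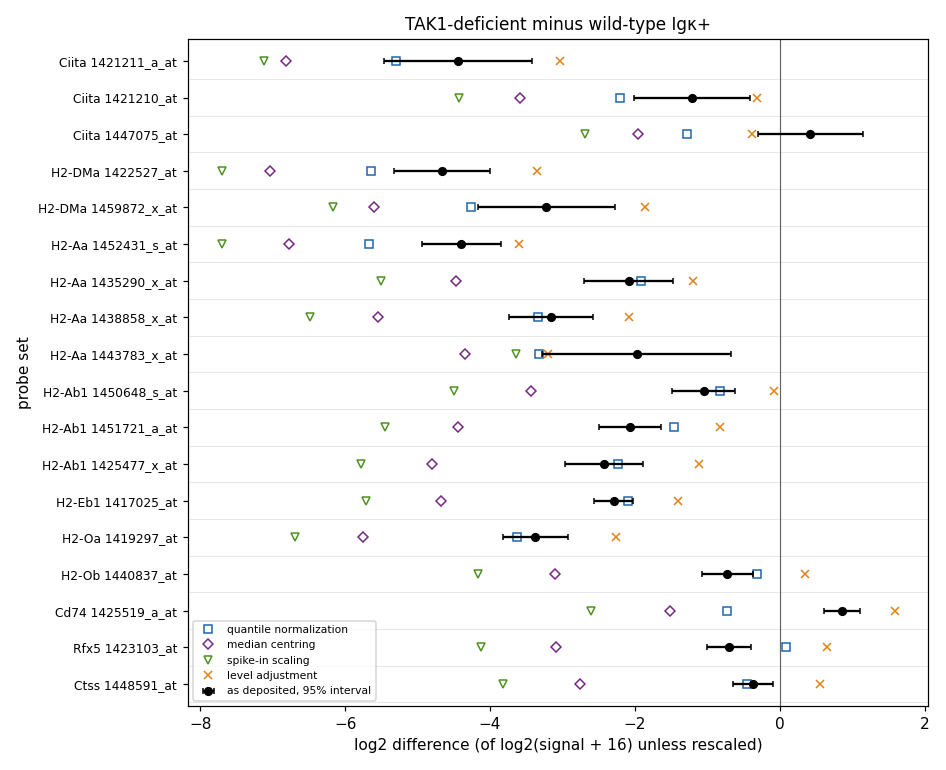
Difference between TAK1-deficient and wild-type Igκ+ cells for each of the 18 probe sets. Filled circles with bars give the difference in log2(signal + 16) of the deposited signals with its 95% confidence interval, and open symbols give it under 4 other scalings. Cd74, Rfx5, H2-Ob, Ctss and Ciita 1447075_at change sign with the scaling, and the other 13 are below 0 under all 5.

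Among the loading factors, H2-DMa, the α chain of the peptide exchange factor H2-DM, had the largest change of the 18 on the deposited signals, though H2-Aa 1452431_s_at fell further after quantile normalization (-5.68 against -5.65) and adjustment for level (-3.61 against -3.36). Probe set 1422527_at read 134 and 212 without TAK1 against 4021 and 5420 in wild-type Igκ+ cells, and 4591 and 3519 in Igλ+ cells. The mean was 27.3-fold lower, the difference was -4.66 (SE 0.28, adjusted p = 1.54e-05), and the percentile went from 97.3 to 28.7. The second probe set, 1459872_x_at, read 95.7 and 178 against 1720 and 1073, with 2142 and 1276 in Igλ+ cells. It fell by 3.22 (SE 0.40, adjusted p = 0.000227), so both probe sets agree in direction and lie below the 10th percentile of their bins.

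H2-Oa and H2-Ob encode the α and β chains of H2-O, the B cell inhibitor of H2-DM. H2-Oa read 547 and 670 without TAK1 against 5680 and 7258 in wild-type Igκ+ cells, and 6471 and 5642 in Igλ+ cells. It fell by 3.37 (SE 0.19, adjusted p = 1.47e-05), to 9.41% of the wild-type Igκ+ mean, and its percentile went from 98.9 to 71.8. The single-gene probe set of H2-Ob read 3674 and 4214 against 7396 and 5714, with 6658 and 7155 in Igλ+ cells. It fell by 0.72 (SE 0.15, adjusted p = 0.00335), to 60.2%. The call ended after quantile normalization (-0.32, adjusted p = 0.274, over all alternatives 8.86e-08 to 0.274), and the value was 0.35 after adjustment for level. A probe set annotated to both Gm20506 and H2-Ob, not tested, differed by -2.84, close to H2-Oa. Whether the chains of H2-O changed by different amounts was not tested.

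The invariant chain was the exception. Cd74 read 21818 and 21550 without TAK1 against 10782 and 13236 in wild-type Igκ+ cells, and 11358 and 12142 in Igλ+ cells. Both TAK1-deficient signals were above all 4 others. Cd74 rose by 0.86 (SE 0.10, adjusted p = 0.000192), or 1.81-fold. Its percentile was 99.84 without TAK1 and 99.97 with it. On the wild-type arrays its signals lay near the highest of any gene, 12231 to 14228, whereas on the TAK1-deficient arrays the highest were 48853 and 51644. Whether wild-type signals were limited by saturation was not tested. The rise depends on the scaling: Cd74 was lower after quantile normalization (-0.73), median centring (-1.52) and spike-in scaling (-2.60). Ctss, the protease that cleaves Cd74 in B cells, read 6063 and 7039 against 7943 and 9040, with 9028 and 8390 in Igλ+ cells. It fell by 0.37 (SE 0.12, adjusted p = 0.0209), the smallest change among those called. Its call ended when TAK1-deficient replicate 1 (-0.27, adjusted p = 0.165) or replicate 2 of wild-type Igκ+ (-0.28, adjusted p = 0.104) was left out, and without a variance trend (adjusted p = 0.187). Over all alternatives its adjusted p ran from 8.21e-08 to 0.187, and its value after adjustment for level was 0.56.

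**Figure D4:**
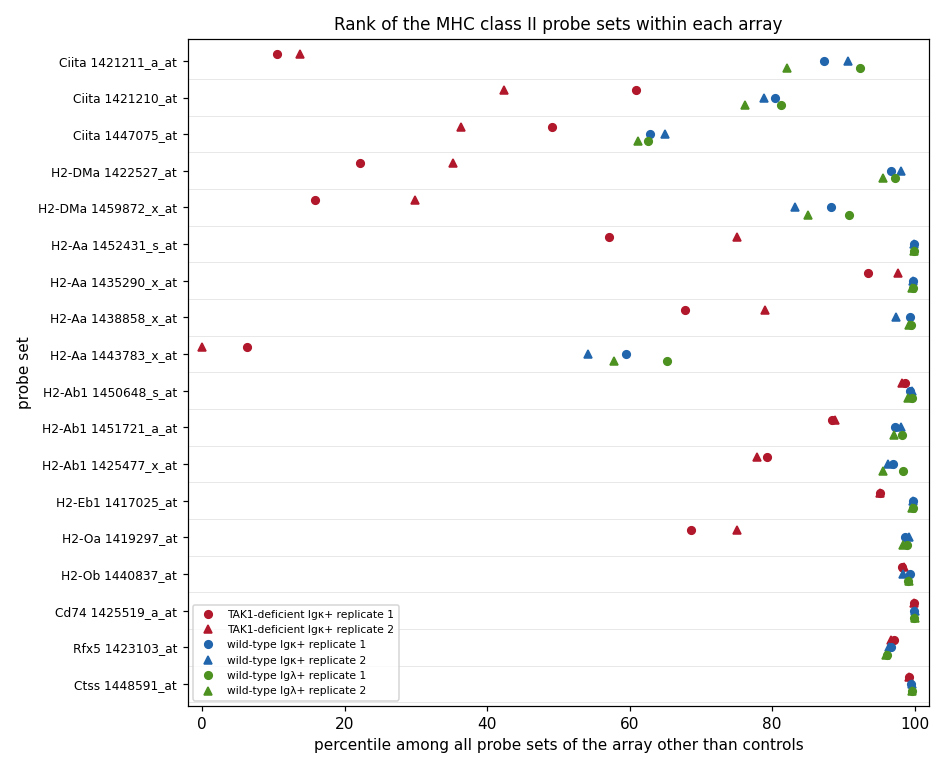
Percentile of each of the 18 probe sets among all probe sets of the same array other than controls, 1 point per array, a measure that a single scaling factor per array cannot move. H2-DMa 1422527_at had a mean of 97.3 in wild-type Igκ+ and 28.7 in TAK1-deficient cells, while Rfx5 had 96.5 and 96.9.

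Under other scalings the members kept most of their calls while the whole distribution moved. The median of all single-gene probe sets was -0.45 after quantile normalization, -1.32 after median centring, -1.48 after spike-in scaling and -0.13 after adjustment for level. The members' medians were -2.14, -4.46, -5.48 and -1.16, each below that of all probe sets. The members called lower were 16, 18, 18 and 11 of 18, where 39.3%, 54.0%, 53.6% and 21.7% of all probe sets were lower. Most members are bright, and the share of equally bright probe sets called lower was not taken under any of these scalings. The members' counts and medians under these scalings therefore do not show whether they differ from other bright probe sets. The adjustment for level takes out the trend with wild-type level, but its 21.7% is also a share of all probe sets. Among all called probe sets, 66.0% were higher as deposited, against 34.7%, 25.4%, 22.8% and 47.4% under these scalings. A filter on dim probe sets gave 44.7%, and 1 probe set per gene after that filter gave 39.3%.

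The other genes of the class II pathway were taken from a list and measured by the brightest probe set of each gene. Of 26 listed symbols 22 were measured, and 16 were lower, 3 were higher and 3 were not called, with a median of -1.30. Of these, 14 are in the brightest 10%, and 12 of them were lower, again near the 88.1% of that set. The median stayed below 0 under the 4 other scalings, with 9 lower and 5 higher after adjustment for level. Over all 18193 genes measured this way, 32.1% were lower, 49.3% were higher and the median was 0.96. Rfxank, a partner of Rfx5 in the RFX complex, fell by 3.75 (SE 0.54), from a mean of 952 to 68.5, with 1 TAK1-deficient array within the range of unspiked controls. Marchf1, the ubiquitin ligase that removes class II from the surface, fell by 3.68 (SE 0.18), from 3890 to 290.2. H2-Eb2, a further β chain gene, fell by 2.39 (SE 0.27), from 2549 to 478. Other subunits of the promoter complexes were lower too, with Nfya at -2.20, Rfxap at -1.26 (-0.59 and not called after adjustment for level) and Nfyb at -0.82 (0.65 after adjustment for level), while Nfyc at -0.17 was not called (adjusted p = 0.311). Ctsl, a cathepsin, rose by 5.58 (SE 0.37), from 21.5 to 1726, on 1457724_at. Its probe set with the brighter wild-type signal, 1451310_a_at, was not called (adjusted p = 0.409). The other higher genes were H2-Ea (1.80), the α chain of I-E, which C57BL/6 mice do not make, and Ifi30 (0.44), a thiol reductase of endosomes. H2-Ea was below 0 under all 4 other scalings (-0.95 to -0.59), and Ifi30 under all but the adjustment for level. H2-Ea, Ifi30, Nfya, Nfyb, Nfyc, Rfxap and the other Ctsl probe set were named after their values were seen.

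Among transcription factors that act on Ciita or class II genes, 11 of 12 were measured. Lower were 6, higher were 3 and the median was -0.90, but after adjustment for level 2 were lower and 4 higher, with a median of 0.038. Over all genes measured this way, 32.1% were lower and 49.3% higher. In the brightest 10% of probe sets are 8 of the 11, of which 5 were lower and 2 higher. In that set 88.1% were lower, so these 8 were not lower more often than equally bright probe sets. Pou2f2 (-2.12, SE 0.34), Ets1 (-2.03, SE 0.18) and Irf8 (-1.65, SE 0.14) fell, Pou2f2 without a call after adjustment for level (-0.63). Prdm1, a repressor of Ciita in plasma cells, rose by 1.72 (SE 0.45), from a mean of 163 to 575, but was -0.66 after median centring and -1.50 after spike-in scaling. Without TAK1-deficient replicate 2, and likewise without wild-type Igκ+ replicate 2, only 1 gene of this list was higher. Ebf1 (0.66) and Spib (0.31), named after their values were seen, were the other higher genes, and both were lower after median centring and spike-in scaling.

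Of 17 genes of class I presentation, 16 were measured, 14 were lower, 0 were higher, and the median was -1.49. Of these 16, 13 are in the brightest 10%, and 11 of them were lower, a share near the 88.1% of that set. It was below 0 under the 4 other scalings, with 7 lower and 3 higher after adjustment for level. Pdia3, a chaperone of the peptide-loading complex, fell by 3.33 (SE 0.23), the immunoproteasome subunits Psmb8 and Psmb9 fell by 2.38 (SE 0.22) and 2.17 (SE 0.20), and the chaperone Calr fell by 2.02 (SE 0.19). B2m (-0.30, adjusted p = 0.163) and H2-K1 (-0.29, adjusted p = 0.210), named after their values were seen, were not called, while a further probe set of H2-K1, 1425336_x_at, fell by 1.53. Whether class II genes changed more than class I genes was not tested. Of 10 costimulation genes, 6 were lower and 3 were higher, with a median of -1.41, where 32.1% of all genes were lower and 49.3% higher. Of these 10, 5 are in the brightest 10%, and 4 of those were lower and 1 higher. Cd48, a ligand of CD244 and CD2, fell by 3.28 (SE 0.19), and Icosl, the ligand of ICOS, fell by 2.22 (SE 0.22). Tnfsf4 (3.59, SE 0.34) and Cd80 (3.40, SE 0.35) rose, with wild-type Igκ+ means of 9.02 and 74.1. Tnfsf4, with 2 wild-type arrays within the range of unspiked controls, was not called after quantile normalization (0.97) and adjustment for level (0.48), nor was Cd80 after spike-in scaling (0.18). Cd24a (2.03), named after its values were seen, also rose, but was lower after median centring (-0.36) and spike-in scaling (-1.44).

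Class II genes are expressed by dendritic cells and macrophages too, and markers of these and other cells differed between the groups too. Of 7 measured B cell markers, 3 were lower and 3 higher as deposited. Their summed deposited signal was 62240 to 71297 without TAK1 against 48954 to 51747 in wild-type Igκ+ cells. These counts depend on the scaling: 3 were lower and 1 higher after quantile normalization, and 0 lower and 4 higher after adjustment for level. All 7 were lower after median centring (median -2.63) and spike-in scaling (median -3.69). The Ig receptor chain Cd79a fell by 1.36 (SE 0.15) but was not called after adjustment for level (-0.33), and Cd79b rose by 0.63 (SE 0.088) as deposited but was -0.37 after quantile normalization. Of 10 dendritic cell markers, 2 were lower and 4 higher, with sums of 9557 to 9569 against 10439 to 13886. The mean went from 101 to 1389 for Zbtb46 (not called after spike-in scaling) and from 6705 to 1457 for Cst3. Flt3 was lower too (-0.99), Batf3, Ccr9 and Xcr1 were higher, and Itgax, Siglech, Cd209a and Tcf4 were not called. Cst3, Flt3 and these 4 were named after their values were seen. Xcr1 was not called under any of the 4 other scalings, nor was Batf3 after adjustment for level. On 2 wild-type arrays for Xcr1 and 3 for Batf3 the signal was within the range of unspiked controls. Of 9 monocyte or macrophage markers, 1 was lower and 4 higher, with sums of 2496 to 2748 against 938 to 2211. Of 8 T cell markers 7 were higher, with sums of 4796 to 5009 against 342 to 754, and 8 of 9 stromal or endothelial markers were higher, with sums of 5470 to 5517 against 1167 to 1341. For granulocytes 1 of 9 was higher, with sums of 8130 to 8715 against 316 to 5255, and for erythroid cells 2 of 5, with sums of 430 to 561 against 92.7 to 182. Plasma cell markers were lower for 5 of 7 and higher for 2, with sums of 5797 to 7459 against 19816 to 24292. Over all 18193 genes measured this way, 49.3% were higher and 32.1% lower. In the 20 bins by wild-type level, the median difference was 2.84 in the dimmest and -1.34 in the brightest. The medians of the T cell and the stromal or endothelial markers were 3.06 and 3.03, and 0 of either list are in the brightest 10%. Most of the higher marker calls depend on the scaling: after quantile normalization 3 dendritic, 0 monocyte or macrophage, 2 T cell, 4 stromal or endothelial and 0 plasma cell markers were higher. On the TAK1-deficient arrays 1 dendritic, 2 monocyte or macrophage, 1 T cell and 1 erythroid marker were within the range of unspiked controls on both arrays. The part of other cells in the members' values was not tested.

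Light chain use was compared among wild-type cells, as Igλ+ against Igκ+. None of the 10 genes differed detectably. With limma, 0 of the 18 probe sets passed the threshold, as did 0% of all single-gene probe sets, and 0 of 18 had an unadjusted p under 0.05, against 1.8% (630) of all. The smallest unadjusted p was 0.186, for H2-Aa 1438858_x_at. The median difference was -0.068, and 6 of 18 probe sets had the higher mean in Igλ+ cells. Both Igλ+ signals lay below both Igκ+ signals for Rfx5 and Ciita 1447075_at and in no other case, 2 of 18, where 26.8% of all probe sets did not overlap. Without Igλ+ replicate 2, 16 of all single-gene probe sets passed the threshold and 0 of the members did.

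The intervals say how large a difference the arrays could have missed. For Cd74 the 95% interval of Igλ+ minus Igκ+ ran from -0.27 to 0.22, for H2-Eb1 from -0.32 to 0.21 and for Ctss from -0.24 to 0.32. For Rfx5 it ran from -0.41 to 0.20, for H2-Oa from -0.53 to 0.36 and for H2-Ob from -0.27 to 0.44. All 6 of these intervals hold 0. For H2-DMa 1422527_at it ran from -0.87 to 0.44. The widest bounds over the 18 were -1.25, for Ciita 1421211_a_at, and 1.96, for H2-Aa 1443783_x_at. Ciita 1421211_a_at read 2466 and 986 in the Igλ+ replicates, so a difference within its interval was not detectable here.

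Other cells varied between the same arrays. The summed granulocyte markers reached 37296 on an Igλ+ array and 329 on the other, and 5255 and 316 on the Igκ+ arrays. In both groups replicate 1 had the higher sum. The summed monocyte or macrophage markers ranged from 583 to 8787 in Igλ+ cells. The summed B cell markers, 50202 to 54324 in Igλ+ cells, were close to those of Igκ+ cells. The members' values on these arrays are given above, and the part of other cells in them was not tested.

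**Figure D5:**
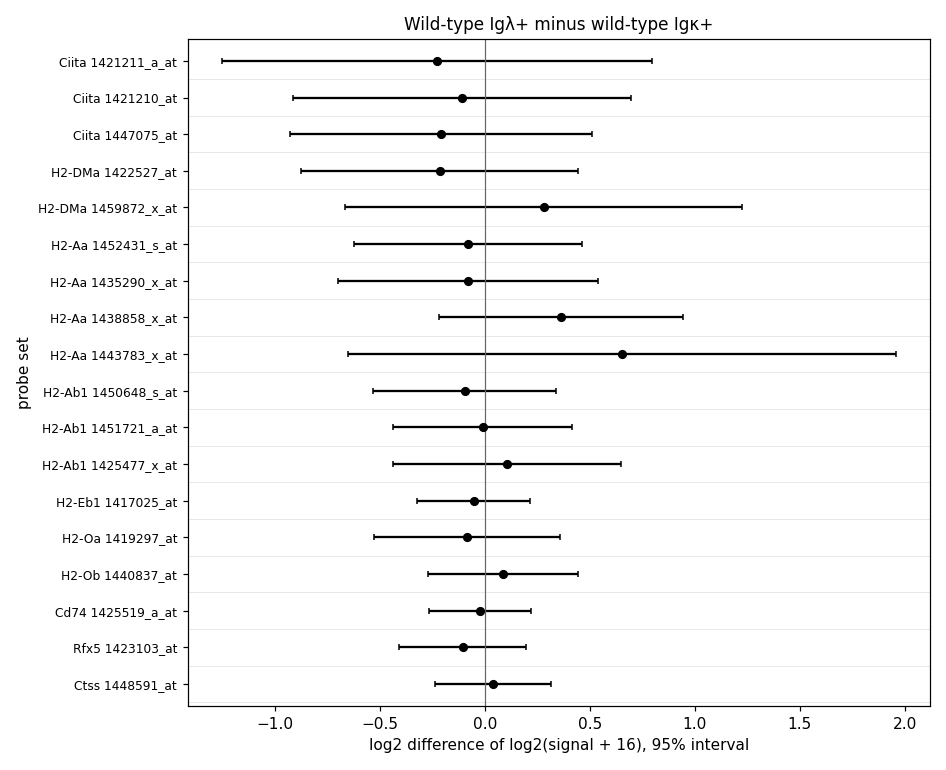
Difference between wild-type Igλ+ and wild-type Igκ+ cells, in log2(signal + 16), with 95% confidence intervals, for the 18 probe sets. Every interval includes 0.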

How the data were processed

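RNA of sorted bone marrow B cells was hybridised to 6 arrays of 45101 probe sets. The values the authors deposited are intensities on a linear scale, which the submitters' processing notes credit to MAS5. Leaving out the lowest and highest 2% of probe sets, each array has a mean of 500.0, so 1 scaling factor per array was applied. Detection calls were not used here. Probe sets were named from the platform annotation, of which 34945 had 1 symbol, 932 several, 9160 none and 64 were controls.

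Groups came from the titles, with the title ending in -rep as replicate 2. Signals were taken as log2(signal + 16) without a filter. Differences were estimated with limma 3.58.1 in R 4.3.3 (lmFit over all 6 arrays with a mean per group, 3 residual degrees of freedom, eBayes with a trend, two-sided, Benjamini-Hochberg over all single-gene probe sets, threshold 0.05). Gene lists used the probe set of each gene with the highest mean over all arrays. The members and lists were chosen with earlier results of these data known. Beyond the members, up to 4 genes per list were named, those with the largest called difference and groups that did not overlap, and any others are marked. An array signal was taken as within the range of the unspiked controls when at or below their 95th percentile on that array.

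Alternatives were pseudocounts of 1 and 64, a filter at the 40th percentile, and 1 probe set per gene after that filter. Others were quantile normalization, median centring, scaling to the spiked controls and a lowess adjustment for level (span 0.2). Further ones were no trend, a replicate block, only the 4 arrays compared and leaving out each array. The motif GATTGG and lists by the brightest wild-type probe set were added after the data were seen. The code was tested on simulated data. Promoters came from RefSeq. Figures used matplotlib 3.10.9 in Python 3.11.15. The number of arrays limits the precision.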

Additional observations from a re-analysis of the deposited data

How the results depend on the processing

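In the TAK1 comparison, the fall of H2-DMa, H2-Oa, H2-Eb1, Ciita 1421211_a_at, 3 probe sets of H2-Aa and 2 of H2-Ab1 kept its direction and its call under every alternative that held the probe set. Over the members, 277 values kept direction and side of the threshold, 10 lost the call and 10 reversed. In the light chain comparison all 297 stayed uncalled. The reversed values were, after quantile normalization, Rfx5 0.085, Cd74 -0.73 and Ciita 1447075_at -1.29. After median centring they were Cd74 -1.52 and Ciita 1447075_at -1.96, after spike-in scaling Cd74 -2.60 and Ciita 1447075_at -2.69, and after adjustment for level Rfx5 0.65, H2-Ob 0.35 and Ctss 0.56. The cause was not tested.

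With 1 probe set per gene after the filter on dim probe sets, 9 of 10 members were lower, where 48.7% of the 11884 genes left were. Over all 18193 genes, without that filter, 32.1% were lower. The share among equally bright genes was not taken here. Members called higher numbered 0 after quantile normalization, median centring and spike-in scaling, and 3 after adjustment for level. After quantile normalization the transcription inputs and the costimulation list each had 1 gene higher. After median centring the class II pathway had 1 higher, and the transcription inputs had 10 lower and 0 higher. After spike-in scaling the class II pathway had 1 higher, the transcription inputs 11 lower and 0 higher, and costimulation 1 higher. After adjustment for level the class II pathway had 9 lower and 5 higher, the transcription inputs 2 lower, class I 7 lower and 3 higher, and costimulation 3 lower. Leaving out each array gave 14 to 16 members lower and 1 to 3 transcription inputs higher. Where a single array remained in a group, it was assumed to vary like the others.

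Taking the replicate number as a block left 16 members lower and 1 higher. Same-numbered arrays did not deviate together throughout, so the numbers were not taken as pairs. The correlations of TAK1-deficient cells were 0.00189 with wild-type Igκ+ and 0.00554 with Igλ+ cells. Between wild-type Igκ+ and Igλ+ cells, the groups of the light chain comparison, the correlation was 0.210. Choosing the brightest wild-type probe set, an alternative added after the data were seen, gave 16 lower and 2 higher in the class II pathway. The raised signal of unspiked controls on the TAK1-deficient arrays limits what can be read of dim probe sets there.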

Other observations

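The class II genes are neighbours on the chromosome, and the genes between them were also lower without TAK1 on the deposited signals. In the RefSeq gene order (GRCm38.p6), 13 protein-coding genes run from H2-Oa to H2-Eb1, of which 6 are described above. Of the other 7 genes, 6 had a single-gene probe set, and all 6 were lower in TAK1-deficient than in wild-type Igκ+ cells by limma. Psmb8 (-2.38) and Psmb9 (-2.17) are immunoproteasome subunits. Tap1 (-1.51) and Tap2 (-0.96) form the peptide transporter of class I loading. Brd2 (-1.50), a chromatin reader outside antigen presentation, lies between H2-Oa and H2-DMa. H2-DMb2, a β chain of H2-DM, had the smallest difference (-0.44, SE 0.098). These genes were taken by position, and all but Brd2 were also counted, on the same probe sets, in the class I or class II lists above. Of the 6, 5 are in the brightest 10% of probe sets, where 88.1% were lower, so their count is near that share. After adjustment for level Tap1 (-0.067), Tap2 (-0.40) and Brd2 (-0.011) were not called and H2-DMb2 was higher (0.53).

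Probe sets shared by several genes were not tested, and their values differ from the single-gene readings. The probe set annotated to both Gm20506 and H2-Ob read 716 and 957 on the TAK1-deficient arrays against 4807 and 7548 on the wild-type Igκ+ arrays, a difference of -2.84, where the single-gene probe set of H2-Ob gave -0.72. The 2 probe sets shared by H2-DMb1 and H2-DMb2 differed by -2.65 and -2.62, where the single-gene probe sets of H2-DMb2, 1443687_x_at and 1443686_at, gave -0.44 and -0.60.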
